A study of Mus musculus with 51 samples.

Results

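The genes described here encode the machinery that brings proteins into mitochondria. They are the protein-coding genes of the deposited count table whose mouse symbols begin with Timm or Tomm and a digit, together with Samm50, the metaxins Mtx1 to Mtx3, Pam16, Dnajc19, Grpel1, Grpel2, Pmpca, Pmpcb and Chchd4, each with at least 10 counts in at least 5 libraries. The rule found 34 members among the 53801 genes of the table. The pattern matched 37 symbols, of which 36 are protein-coding. Timm8a2 and Tomm20l had no library with 10 counts, and the remaining match, Tomm6os, is an antisense gene. All 34 members passed the filter on low counts and are among the 17015 genes tested.

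The data are 51 RNA libraries. The cells are C3H/10T1/2-SAM, mesenchymal cells of the mouse that can form fat cells and carry the synergistic activation mediator, in which a catalytically dead Cas9 raises transcription of the gene its guide RNA points to. Cells were transfected with plasmids for guides to Pparg and Ybx1 together (PY), for a guide to Pparg alone (P), or with an empty vector (EV), 250 ng of plasmid in total in each case. The PPARG agonist rosiglitazone was given at 5 µM to every group, EV included, 48 h after transfection, and that time is day 0. RNA was taken on days 0, 2 and 4. On days 0, 2 and 4 there were 6, 5 and 6 PY libraries, 5, 6 and 6 P libraries, and 5, 6 and 6 EV libraries. They come from 6 experiments, with 1 library of an experiment in a group. The labels do not say whether the cells are 1 clone, or whether day 0 RNA was taken before the drug took effect.

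Nearly all mitochondrial proteins are made in the cytosol and enter through the TOM complex of the outer membrane. From there, barrel proteins are handed to the SAM complex, carriers of the inner membrane to the small TIM chaperones and the TIM22 complex, small cysteine-rich proteins to the CHCHD4 (MIA40) relay, and proteins with a cleavable presequence to the TIM23 complex. A motor on the matrix side (PAM) pulls the presequence proteins in, and a peptidase of 2 subunits (MPP, encoded by Pmpca and Pmpcb) removes the presequence. In fat cells these routes supply the enzymes of fat oxidation and respiration that build up as the cells mature.

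The genes the guides target were higher in the cells labelled with them. Pparg, which encodes the master receptor of fat cell formation, stood at 265 ± 83.5 CPM in PY and 239 ± 65.7 CPM in P on day 4, against 57.1 ± 15 CPM in EV (SD, n = 6 each), where CPM are read counts scaled to a common library size. Ybx1, which encodes a Y-box RNA-binding and DNA-binding protein, stood at 1873 ± 404 CPM in PY on day 4, against 579 ± 72.1 CPM in P and 578 ± 105 CPM in EV. Total counts ran from 3381870 to 114566739 with a median of 22366559. On day 4 the mitochondrially encoded genes took 1.84 to 12.4% of counts in PY, 1.82 to 13.2% in P and 1.10 to 7.14% in EV, and the 10 most abundant genes took 7.14 to 22.1% in PY, 6.22 to 25.5% in P and 6.95 to 24.1% in EV. The part of these shares in the results was not tested. The 5 fat cell markers (Fabp4, Adipoq, Plin1, Lpl, Cebpa) summed to 1292 to 11697 CPM in PY and 2443 to 9894 CPM in P on day 4, against 39.0 to 413 CPM in EV. All 5 passed the test in both comparisons with EV. In bulk RNA a larger share of fat cells and more RNA per cell cannot be told apart, and this holds for every difference below. Markers of other cell types were scarce on day 4. Macrophage markers summed to at most 4.72 CPM in any group, endothelial markers to at most 1.10 CPM and epithelial markers to at most 15.2 CPM. Of the 51 libraries of all days, Ptprc, Adgre1, Csf1r and Cd68 were at 0 in 27, 40, 3 and 0. Cdh5, Pecam1 and Kdr were at 0 in 20, 1 and 0. Epcam, Krt18, Krt8 and Cdh1 were at 0 in 37, 12, 11 and 0. Most of the epithelial maximum was Krt8, at 11.9 CPM in the PY library of experiment 4. Skeletal muscle markers summed to 1.53 to 8.21 CPM in PY and 2.55 to 5.75 CPM in P, against 0.596 to 2.03 CPM in EV. Most of this was Des, which passed in both comparisons, while Myog and Myh3 were at 0 in 25 and 23 libraries. The 5 mesenchymal markers summed to 1887 to 2910 CPM in PY and 2056 to 3873 CPM in P, against 3101 to 5352 CPM in EV, and 1 of them was lower in PY than in EV and 0 in P than in EV. The part of these cell types in the results was not tested.

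The import genes were expressed in every group. Per length of annotated exons (RPKM, CPM per kilobase), averaged over the 9 groups, the highest were Tomm22 at 50.7, the central receptor of TOM, Timm8b at 47.8, a small TIM chaperone, Tomm7 at 39.7, a small TOM subunit, and Timm13 at 38.6, the partner of the TIM8 proteins. The channel genes were lower, with Tomm40 at 15.1, Samm50 at 12.3, Timm22 at 11.8 and Timm23 at 8.27 RPKM. Mean RPKM per group ran from 44.0 to 54.5 for Tomm22 and from 42.0 to 58.8 for Timm8b, so this pair of neighbours overlapped. The lowest were Tomm40l at 1.92 RPKM, Timm8a1 at 1.3 RPKM and Tomm6 at 0.484 RPKM. Tomm6 had a median of 11 counts and shares 859 of its 1131 exon bases with Gm21981 on the same strand, so its values are uncertain. Exons of 15 members overlap a gene on the opposite strand, the most in Tomm40l, which shares 3304 of 5135 bases with Nr1i3. Whether counting used strand is not given in the sources used here. For 10 members the annotation holds copies of at least 95% identity, whose own counts came to between 0 and 4.85% of the member's, the most for Timm8a1. How reads that match both were counted is not given, so low counts of a copy do not show that the member's count is complete. Timm23 has 6 such copies, with identity up to 100% and matches of up to 1121 bases, so its level is uncertain. The annotation is GENCODE M21 on GRCm38.

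On day 4 a number of import genes were higher with the Pparg guide than with the empty vector, and none passed as lower. In P, 5 of 34 members passed upward and 0 downward, where 5.18% of all genes tested passed upward and 0.2% downward. They were Samm50, Pmpcb, Grpel1, Timm22 and Timm8a1. In PY, 13 of 34 passed upward and 0 downward, where the shares over all genes were 7.03% and 0.793%. The median log2 fold change over the 34 members was 0.42 in PY over EV and 0.33 in P over EV, against -0.05 and -0.06 over all genes, and 32 of 34 members lay above 0 in each comparison. Both comparisons use the same EV libraries. All calls are from edgeR's quasi-likelihood test, two-sided, with Benjamini-Hochberg adjustment over 17015 genes at 0.05. With the experiment as a replicate block the counts were 22 higher and 1 lower (Tomm34) in PY over EV, where 10.3% of all genes were higher and 5.57% lower under the same block, and 16 higher and 0 lower in P over EV, where 7.92% were higher and 2.21% lower. In P over EV DESeq2 and median-of-ratios size factors gave 8 members each. The shares of all genes under these settings are not given here, so the higher count is not a result about the members. The count of 5 in P over EV moved with single libraries. It rose to 12 without the EV library of experiment 4 and to 14 without the P library of experiment 6. The count in PY over EV was 7 without the EV library of experiment 6.

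**Figure D1:**
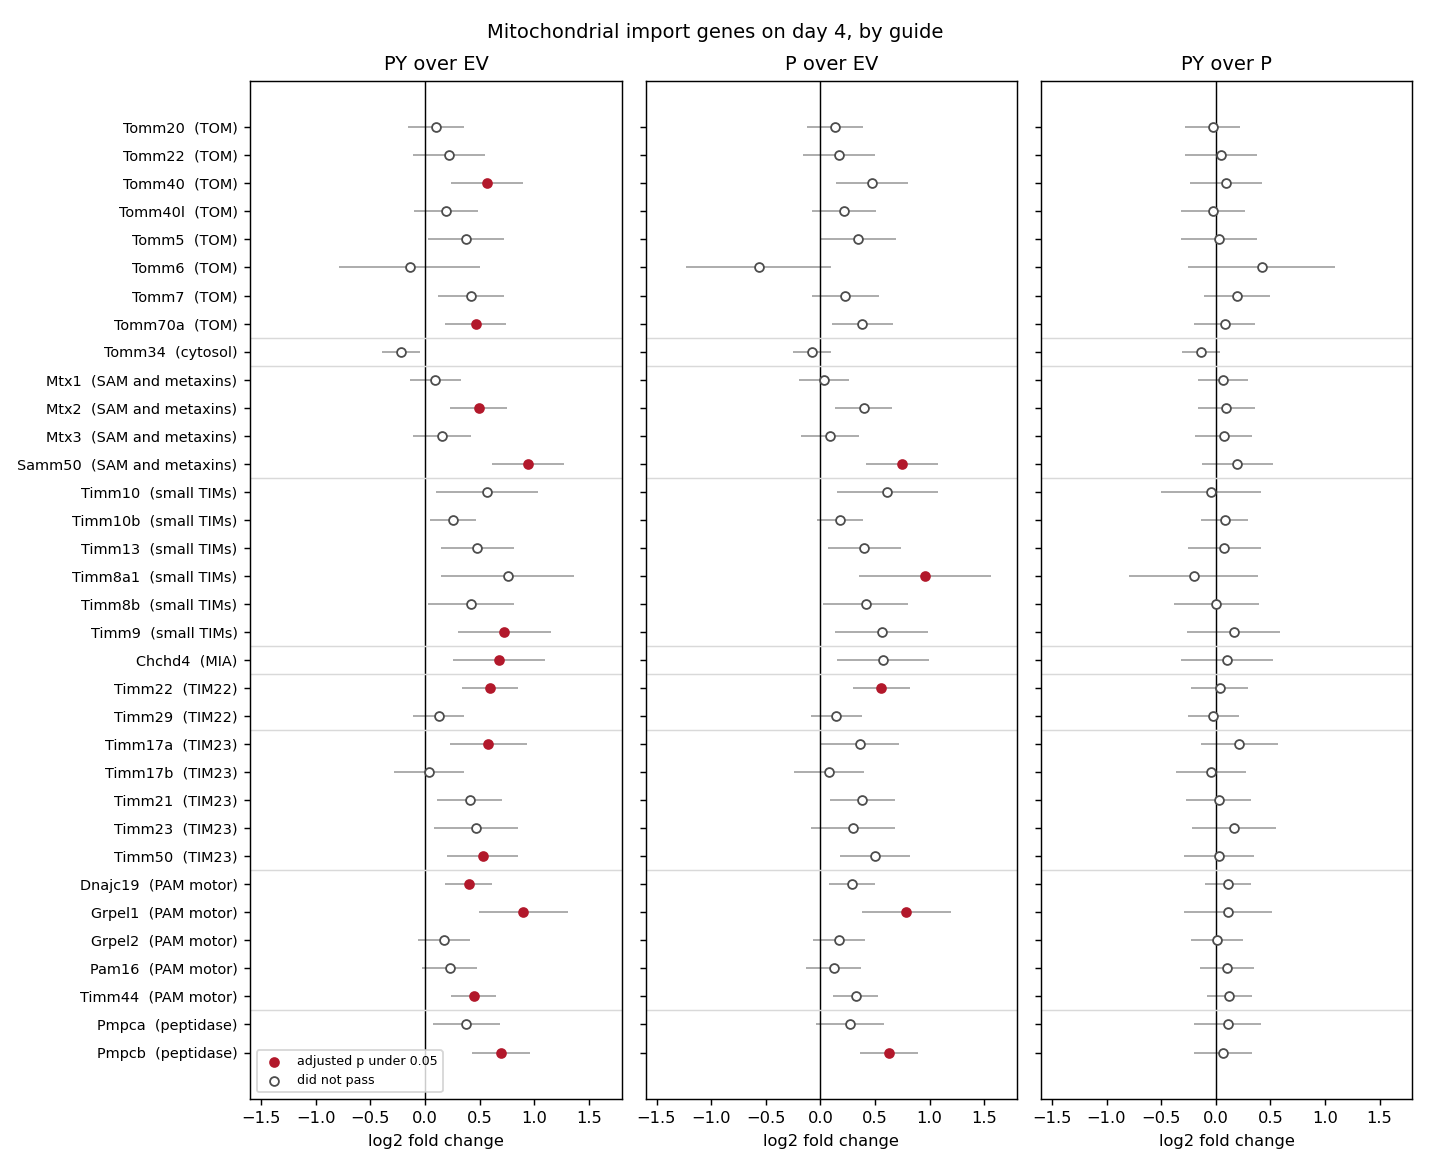
Log2 fold change on day 4 (x axis) of each of the 34 import genes (rows, by complex) for PY over EV, P over EV and PY over P, with 95% intervals as lines and genes that passed the adjusted p of 0.05 as filled points. In PY over EV 13 points are filled and in P over EV 5, all to the right of 0, while none is filled in PY over P.

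The start regions of 4 genes are shown. Samm50 and Pmpcb had the smallest adjusted p of the members in both day 4 comparisons with EV, and Timm17a and Timm17b encode alternative subunits of the same channel whose ratio changed with time, as described further on. The sequences are RefSeq's for GRCm38.p6, 250 bases before to 50 after the gene start given by RefSeq, which in these 4 windows is not the start of a GENCODE M21 transcript though such a start lies inside each window, 5′ to 3′ on the strand of the gene, with motif matches on either strand in capitals.
Samm50 (chr15:84191990-84192289, plus strand): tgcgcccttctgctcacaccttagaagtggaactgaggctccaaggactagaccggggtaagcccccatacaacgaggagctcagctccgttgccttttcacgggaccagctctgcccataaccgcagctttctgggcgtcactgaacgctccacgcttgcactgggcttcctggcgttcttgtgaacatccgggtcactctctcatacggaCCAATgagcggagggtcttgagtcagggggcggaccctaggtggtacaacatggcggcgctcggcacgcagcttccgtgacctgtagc
Pmpcb (chr5:21736910-21737209, plus strand): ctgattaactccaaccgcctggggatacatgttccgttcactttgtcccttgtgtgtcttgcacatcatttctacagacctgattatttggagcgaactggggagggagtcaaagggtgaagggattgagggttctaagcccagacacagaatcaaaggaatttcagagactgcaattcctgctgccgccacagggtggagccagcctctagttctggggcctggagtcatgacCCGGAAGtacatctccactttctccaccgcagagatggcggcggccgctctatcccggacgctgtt
Timm17a (chr1:135313688-135313987, minus strand): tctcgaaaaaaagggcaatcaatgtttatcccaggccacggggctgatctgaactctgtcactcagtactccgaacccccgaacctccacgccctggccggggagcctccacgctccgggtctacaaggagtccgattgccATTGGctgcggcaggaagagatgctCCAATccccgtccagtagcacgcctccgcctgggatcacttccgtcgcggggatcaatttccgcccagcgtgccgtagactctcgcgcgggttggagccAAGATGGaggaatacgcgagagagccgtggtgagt
Timm17b (chrX:7899086-7899385, plus strand): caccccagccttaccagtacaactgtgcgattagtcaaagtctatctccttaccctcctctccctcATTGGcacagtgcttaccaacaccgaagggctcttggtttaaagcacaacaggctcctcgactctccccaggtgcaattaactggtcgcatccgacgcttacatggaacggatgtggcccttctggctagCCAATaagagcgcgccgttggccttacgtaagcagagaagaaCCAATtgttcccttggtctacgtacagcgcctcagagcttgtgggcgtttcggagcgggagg
The motifs searched were a CCAAT box (CCAAT), an NRF1 core (TGCGCA), an ETS site (CCGGAAG), a YY1 site (AAGATGG) and an ERR receptor site (AAGGTCA), none of which contains another. They were searched on both strands, so a CCAAT box may read ATTGG. Pmpcb holds an ETS site, Samm50 holds 1 CCAAT box, Timm17a holds 2 CCAAT boxes and a YY1 site, and Timm17b holds 3 CCAAT boxes. Of the 34 members 30 matched the table, with 32 windows in all. Tomm7, Tomm40l, Timm21 and Grpel2 did not match. The ETS site was in 15 of the 32 windows, of 14 genes, or 46.9%, against 8.86% of 32851 promoters. The NRF1 core was in 18.8% of member windows against 7.76% of all, the YY1 site in 15.6% against 6.34%, the ERR site in 9.38% against 4.72%, and the CCAAT box in 28.1% against 37.4%. The 32851 promoters were not limited to the 17015 genes tested here, among which all members are. Shares over the promoters of tested genes are not given, so these differences cannot be read as particular to import genes. A match describes the letters of the window and does not show binding. Of the 14 genes with an ETS site, Grpel1 and Pmpcb are among the 5 members called in P over EV on day 4. The other 3, Samm50, Timm22 and Timm8a1, have no such match.

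Samm50, which encodes the barrel of the SAM complex that inserts other barrel proteins (GRCm38, chromosome 15, 84192241 to 84217267, plus strand), had the largest fold change of the 34 in PY over EV. Its lowest, median and highest day 4 values were 88.6, 124 and 136 CPM in PY and 72.2, 102 and 118 CPM in P, against 51.5, 55.1 and 81.0 CPM in EV. All 6 PY libraries lay above all 6 EV libraries, while the P and EV ranges overlapped through the P library of experiment 6 and the EV library of experiment 4. It was 1.92-fold higher in PY than in EV (log2 0.94 ± 0.16 SE, adjusted p = 3.93e-05) and 1.68-fold higher in P than in EV (log2 0.75 ± 0.16 SE, adjusted p = 0.00146). It was higher in 6 of 6 experiments in both. On day 0 the ranges overlapped, at 65.2 ± 2.78 CPM in PY (n = 6), 61.6 ± 5.70 CPM in P and 58.7 ± 12 CPM in EV (n = 5 each).

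Pmpcb, the catalytic subunit of the presequence peptidase (chromosome 5, 21737141 to 21757152, plus strand), showed the same order. On day 4 the lowest, median and highest were 114, 135 and 168 CPM in PY and 105, 127 and 173 CPM in P, against 75.1, 81.4 and 94.9 CPM in EV. No PY or P library fell within the EV range. Pmpcb was the 1 member of 34 whose P and EV ranges did not overlap on day 4, which held for 3.19% of all genes. Its fold was 1.62 in PY over EV (log2 0.70 ± 0.13 SE, adjusted p = 0.000162) and 1.55 in P over EV (log2 0.63 ± 0.13 SE, adjusted p = 0.000892). Its partner Pmpca, the substrate-binding subunit, was at 104 ± 15.3 CPM in PY and 96.2 ± 10.6 CPM in P against 79.7 ± 17.9 CPM in EV, and did not pass in either comparison by the main test. With the replicate block Pmpca passed in PY over EV.

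Grpel1, the nucleotide exchange factor of the motor chaperone mortalin (chromosome 5, 36464998 to 36474080, plus strand), had 70.1, 93.2 and 108 CPM as lowest, median and highest in PY on day 4 and 55.8, 87.1 and 106 CPM in P, against 39.2, 44.2 and 68.0 CPM in EV. The PY range stood clear of the EV range and the P range did not. The fold was 1.86 in PY over EV (log2 0.90 ± 0.20 SE, adjusted p = 0.0017) and 1.73 in P over EV (log2 0.79 ± 0.20 SE, adjusted p = 0.00938), with 6 of 6 experiments higher in both. Timm22, the channel for carrier proteins (chromosome 11, 76406952 to 76416292, plus strand), had 32.3, 47.5 and 52.6 CPM in PY and 28.7, 45.7 and 51.9 CPM in P, against 24.5, 28.3 and 35.6 CPM in EV. Both ranges overlapped that of EV, and the folds were 1.51 in PY over EV (log2 0.59 ± 0.13 SE, adjusted p = 0.000991) and 1.47 in P over EV (log2 0.56 ± 0.13 SE, adjusted p = 0.00273).

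Samm50, Pmpcb, Grpel1 and Timm22 passed in P over EV in each of 12 fits that left out 1 library, and with all libraries of experiment 2 left out Grpel1 and Timm22 lost the call (adjusted p = 0.119 and 0.0715). Timm8a1, a small TIM chaperone known from the deafness-dystonia syndrome of people, was less certain. It had 0.566, 1.98 and 3.57 CPM in P against 0.515, 0.992 and 1.46 CPM in EV as lowest, median and highest, a 1.95-fold difference (log2 0.96 ± 0.30 SE, adjusted p = 0.0472) on a median of 44 counts a library. Its call was lost, with adjusted p up to 0.219, without the EV library of experiment 2, 3 or 6 or the P library of experiment 1, 2, 4 or 5. In PY it was at 1.65 ± 0.326 CPM and did not pass by the main test, though it did with the replicate block.

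**Figure D2:**
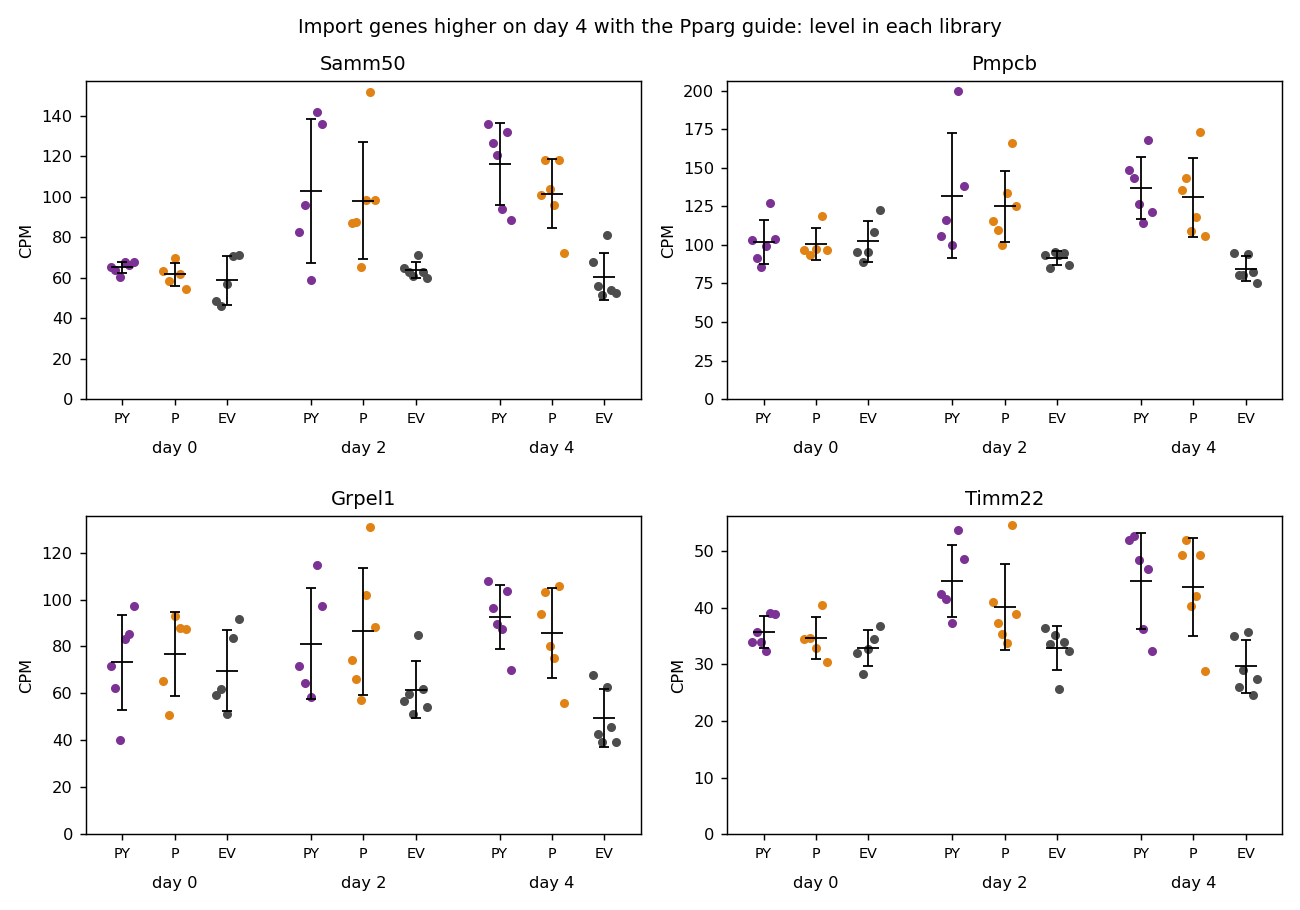
CPM in each library (points) of Samm50, Pmpcb, Grpel1 and Timm22 by day and transfection, with the group mean and SD as black bars, 5 or 6 libraries a group. On day 0 the 3 transfections overlap, and on day 4 the PY and P means lie above the EV mean in each panel, for Samm50 at 116 and 101 CPM against 60.5 CPM.

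The other members that passed in PY over EV on day 4 belong to several complexes. In the intermembrane space these were Timm9, which forms the chaperone ring that carries hydrophobic proteins, at 1.65-fold (log2 0.72 ± 0.21 SE, adjusted p = 0.0222), and Chchd4, the oxidoreductase of the disulfide relay, at 17.7 CPM in the median PY library against 10.2 CPM in the median EV library. In the outer membrane they were Tomm40, the import channel, with medians of 76.2 CPM in PY and 45.5 CPM in EV, Tomm70a, the receptor for carriers, with 202 and 135 CPM in the same order, and Mtx2, a metaxin bound to SAM, with 46.7 and 30.2 CPM. At TIM23 they were Timm17a, a channel subunit, with medians of 85.0 CPM in PY and 49.6 CPM in EV, and Timm50, the presequence receptor, with 33.6 CPM in PY and 21.5 CPM in EV. In the motor they were Timm44, the anchor of mortalin at the channel, with 68.7 CPM in PY and 50.6 CPM in EV, and Dnajc19, a J-protein, with 19.3 CPM in PY and 13.3 CPM in EV. The log2 fold changes of Chchd4, Timm17a, Tomm40, Timm50, Mtx2, Tomm70a, Timm44 and Dnajc19 were 0.68, 0.58, 0.57, 0.53, 0.49, 0.46, 0.45 and 0.40. The ranges of 4 members (Samm50, Pmpcb, Grpel1 and Timm44) did not overlap between PY and EV, where 2.97% of all genes had this property.

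Samm50, Grpel1, Pmpcb, Timm22, Mtx2 and Timm44 passed in PY over EV in each of 12 fits that left out 1 library, and 7 did not. With all libraries of experiment 1 or of experiment 2 left out, Mtx2 lost it too (adjusted p up to 0.0697). The call was lost for Tomm40 without the EV library of experiment 6, for Dnajc19 without the PY library of experiment 2, for Timm9 without EV of experiment 5 or 6 or PY of 1 or 3, and for Tomm70a without EV of 5 or 6 or PY of 2 or 3. It was lost for Chchd4 without EV of 2, 5 or 6 or PY of 1, 2, 3 or 4, for Timm17a without EV of 2, 3 or 6 or PY of 2 or 4, and for Timm50 without EV of 2, 3, 5 or 6 or PY of 5. The highest adjusted p among these single-library fits was 0.114.

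Among the members that passed in neither comparison on day 4, Timm29, a TIM22 subunit, was at 48.1 ± 9.31 CPM in PY and 48.9 ± 8.18 CPM in P against 44.2 ± 6.71 CPM in EV. Mtx1, a metaxin, was at 24.4 ± 2.69 CPM in PY and 23.4 ± 3.09 CPM in P against 22.8 ± 2.47 CPM in EV. Tomm34, a cytosolic cochaperone of import precursors, was the only member with a median below EV in both comparisons besides Tomm6, at 30.8 CPM in PY and 34.5 CPM in P against 37.1 CPM in EV. By complex, 2 of 8 TOM genes, 2 of 4 SAM and metaxin genes, 1 of 6 small TIM genes, the MIA gene, 1 of 2 TIM22 genes, 2 of 5 TIM23 genes, 3 of 5 motor genes and 1 of 2 peptidase genes passed in PY over EV. All were higher in PY, as were 7.03% of all genes tested.

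On day 0 no member passed in either comparison with EV by edgeR's quasi-likelihood test or by DESeq2, and none had an unadjusted p under 0.05, where 0.047% of all genes passed in PY over EV and 0.00588% in P over EV. On day 2, 4 members were higher in PY than in EV (4.34% of all genes upward) and 2 were higher in P (2.78% of all genes upward). Samm50 had 58.7, 95.7 and 142 CPM as lowest, median and highest of 5 PY libraries and 65.1, 92.9 and 152 CPM in P, against 60.0, 62.7 and 71.1 CPM in EV. Its adjusted p was 0.00612 in PY over EV (1.62-fold) and 0.0181 in P over EV (1.54-fold). Pmpcb was 1.45-fold higher in PY (adjusted p = 0.0127) and 1.37-fold higher in P (adjusted p = 0.0473). Timm21, a TIM23 subunit that links the channel to TOM and to the respiratory chain, and Timm22 passed in PY only by the same test, at 1.53-fold and 1.37-fold (adjusted p = 0.0102 and 0.0384), which is no test of a difference between PY and P. These day 2 calls depended on the fit and on few libraries. In PY over EV the count was 0 when only the groups compared were fitted, 7 by DESeq2, 9 without libraries with over 15% of counts in 10 genes (a setting added after the data were seen), and 9 higher and 1 lower with the replicate block, where 6.82% of all genes were higher and 3.38% lower. For the settings other than the block the share of all genes is not given here. Without the PY library of experiment 5 the count in PY was 0, and without that of experiment 6 it was 2. In P the day 2 count was 0 without the P library of experiment 5 and 1 without any single EV library or the P library of experiment 4 or 6. In PY over EV, Samm50 lost its call without the PY library of experiment 5 or 6 (adjusted p up to 0.0843), Timm21 and Pmpcb without that of experiment 5 (0.136 and 0.259), and Timm22 without EV of 4, 5 or 6 or PY of 5 or 6 (up to 0.229). In P over EV, Samm50 lost it without P of 5 (0.164), and Pmpcb without any single EV library or P of 4, 5 or 6 (up to 0.245).

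Whether the difference from EV itself grew from day 0 to day 4 was tested as an interaction. In P over EV 0 of 34 members passed (0.288% of all genes), with 6 at an unadjusted p under 0.05 and 1 by DESeq2. The share of all genes at the unadjusted cut or by DESeq2 is not given here. Those counts are therefore not a result about the members. The nearest was Pmpcb, whose log2 difference rose by 0.66 ± 0.20 SE (adjusted p = 0.15). With the experiment as a replicate block Pmpcb passed (adjusted p = 0.0138). In PY over EV, a test added after the data were seen, Pmpcb passed (log2 0.70 ± 0.19 SE, adjusted p = 0.043) among 1.55% of all genes. From day 2 to day 4 the difference of P from EV changed for 0 members by edgeR and 0 by DESeq2, with 0 at an unadjusted p under 0.05 and 0% of all genes called.

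Adding the Ybx1 guide to the Pparg guide moved no import gene past the threshold. PY over P gave 0 of 34 members on day 0, day 2 and day 4 by edgeR's test, 0 by DESeq2 and 0 with the replicate block, where 0.0294%, 0.0118% and 0.0176% of all genes passed on the 3 days. At an unadjusted p under 0.05 there were 0, 1 and 0 members. The 1 was Timm21 on day 2, with 13.3, 14.6, 16.7, 17.9 and 23.2 CPM in the 5 PY libraries against 11.2 to 18.2 CPM in the 6 P libraries (log2 0.32 ± 0.16 SE, adjusted p = 1 by edgeR's test). The 95% intervals of the log2 difference on day 4 were -0.13 to 0.52 for Samm50, -0.20 to 0.33 for Pmpcb, -0.29 to 0.52 for Grpel1 and -0.22 to 0.29 for Timm22. Outside those intervals lie differences as large as those of PY from EV for the same 4 genes. The 2 members with the smallest p on day 4 were Tomm34, at a log2 difference of -0.14 ± 0.09 SE, and Tomm7, at 0.19 ± 0.15 SE (adjusted p = 1 for both). The median over the 34 members was 0.07 on day 4, with 27 above 0, against 0.01 over all genes. The change of PY over P from day 0 to day 4 was called for 0 members and for 0% of all genes, with 0 members at an unadjusted p under 0.05 and 0 by DESeq2.

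From day 0 to day 4 the members moved in both directions. In PY 9 of 34 were higher on day 4 and 4 lower, a share of 38.2% in all that is close to the 37.5% of all genes (19.7% higher, 17.8% lower). In P 6 were higher and 5 lower, 32.4% of members against 37.3% of all genes (18.7% higher, 18.6% lower). In EV 2 were higher and 13 lower, 44.1% of members against 30% of all genes (15.1% higher, 14.9% lower). The 13 lower make up 38.2% of members. The median log2 change over the members was 0.05 in PY, -0.03 in P and -0.26 in EV, against -0.01, 0.00 and 0.03 over all genes. The change over time was compared between transfections only by the interaction tests above. The day 4 EV libraries stand on both sides of these results, as the later time here and as the control of PY and P above. Chchd4, Timm9, Timm17a, Timm44, Timm50, Tomm40 and Tomm70a were called higher in PY than in EV on day 4 and also lower over time in EV. None of them was called higher over time in PY, and Chchd4 was called lower there. The EV count was 8 without the day 0 library of experiment 4, and the P count was 7 without the day 0 library of experiment 4. Without a filter on low counts the P count was 4 and the PY count 7, and with only the groups compared the P count was 6. With the replicate block Grpel1, Pmpca, Pmpcb, Timm13 and Timm29 were also called between day 0 and day 4 in EV. The share of all genes called under that block is not given here for this comparison.

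**Figure D3:**
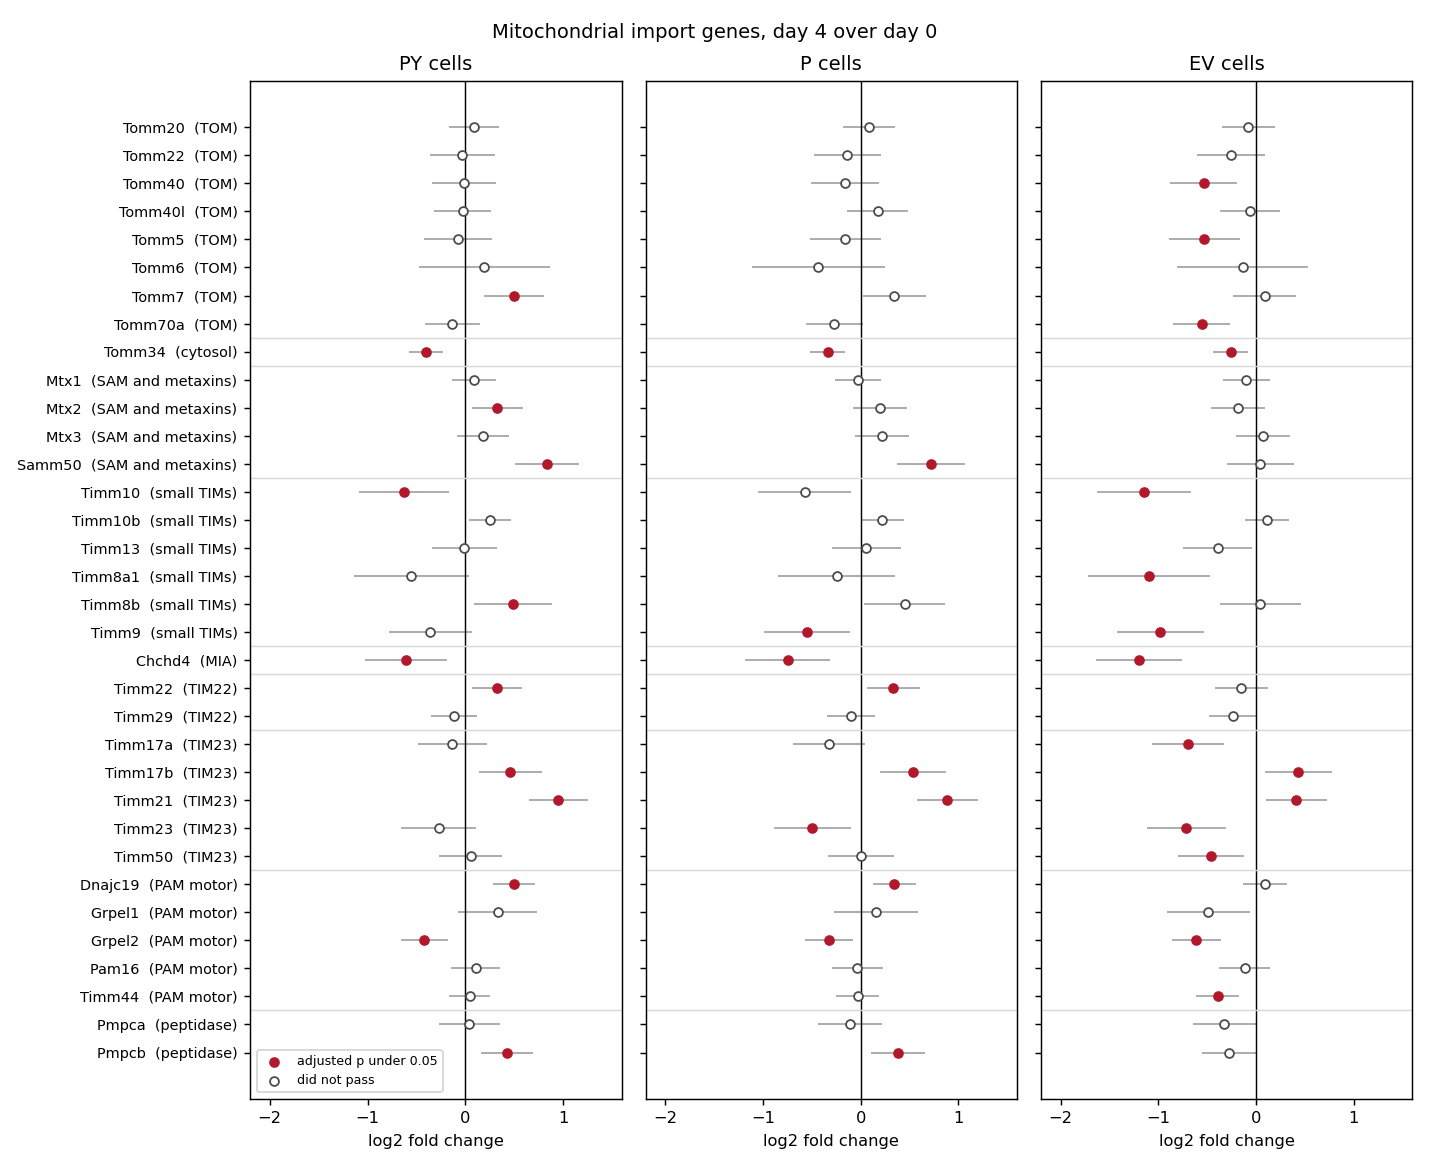
Log2 fold change of day 4 over day 0 (x axis) for each of the 34 import genes (rows, by complex) in PY, P and EV cells, with 95% intervals as lines and genes that passed the adjusted p of 0.05 as filled points. In EV 13 of 15 filled points lie left of 0, in P 5 of 11 and in PY 4 of 13.

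The largest falls in EV were those of Chchd4, Timm10, Timm8a1 and Timm9, all of the intermembrane space. Timm8b, Timm10b and Timm13 of the same space did not pass by the main test, and Timm13 passed with the replicate block. Chchd4 was at 7.21, 10.2 and 13.6 CPM as lowest, median and highest on day 4 in EV, against 14.3, 18.5, 18.6, 30.7 and 34.3 CPM on day 0, with every day 4 library below every day 0 library. Its log2 change was -1.20 ± 0.22 SE in EV (adjusted p = 7.27e-05). It fell with the guides also, with a log2 change of -0.60 ± 0.21 SE in PY (adjusted p = 0.0198) and -0.75 ± 0.22 SE in P (adjusted p = 0.00555). Timm10, the partner of Timm9 in the chaperone ring, was at 6.70, 7.76 and 11.8 CPM on day 4 against 9.68, 14.9, 18, 20.5 and 28.0 CPM on day 0 in EV (log2 -1.15 ± 0.24 SE, adjusted p = 0.000363). Timm9 was at 9.09, 9.55 and 14.5 CPM on day 4 against 14.9, 16.1, 17.8, 23.2 and 30.7 CPM on day 0 in EV, with no overlap (log2 -0.98 ± 0.22 SE, adjusted p = 0.000816). The share of all genes whose day 0 and day 4 ranges were apart is not given here. In EV 30% of all genes were called between these days, so ranges apart are not particular to Chchd4 and Timm9. Timm8a1 changed by log2 -1.09 ± 0.31 SE in EV (adjusted p = 0.00658), a call that was lost without the EV day 0 library of experiment 4 (adjusted p = 0.0503).

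The channel and receptor genes that fell in EV were Timm23, the pore-forming subunit of TIM23, with a log2 change of -0.71, Timm17a with -0.70, Tomm70a with -0.56, Tomm40 with -0.53, Tomm5, a small TOM subunit, with -0.53, and Timm50 with -0.46. In the motor the log2 change was -0.61 for Grpel2, the paralogue of Grpel1, and -0.39 for Timm44, and it was -0.26 for Tomm34. Of the 15 members called in EV, Chchd4, Timm10, Timm9, Timm23, Timm17a, Grpel2, Tomm70a and Timm44 kept the call in each of 11 fits that left out 1 library. Tomm40 lost it without the day 0 library of experiment 4 or 5, Tomm5 without day 0 of 4 or 5 or day 4 of 3, Timm50 without day 0 of 4 or 5 or day 4 of 2 or 6, and Tomm34 without day 0 of 4 or day 4 of 5 or 6. Timm17b, which was higher, lost it without day 0 of 2, 3 or 4 or day 4 of 1, 4 or 6, and Timm21, also higher, without day 0 of 2, 4 or 5 or day 4 of 2, 4, 5 or 6. The highest adjusted p among these single-library fits was 0.169. With all libraries of experiment 5 left out, Timm23 and Timm44 also lost the call (adjusted p = 0.089 and 0.0531).

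The members higher on day 4 than on day 0 in PY and P were led by Timm21 and Samm50. Timm21 was at 14.6, 18.4 and 22.2 CPM as lowest, median and highest on day 4 in PY, against 8.35, 9.11 and 11.2 CPM on day 0, and every day 4 library was the higher (log2 0.95 ± 0.15 SE, adjusted p = 2.82e-06). The share of all genes with such ranges in PY is not given here, where 37.5% of all genes were called between these days. In P Timm21 was at 11.7, 17.7 and 22.5 CPM on day 4 against 6.80, 8.55, 9.15, 11.8 and 11.9 CPM on day 0 (log2 0.89 ± 0.16 SE, adjusted p = 2.22e-05). In EV its change was log2 0.41 ± 0.16 SE (adjusted p = 0.041). The change in PY exceeded that in EV by log2 0.54, which did not pass (adjusted p = 0.346). Samm50 changed by log2 0.83 ± 0.16 SE in PY and 0.72 ± 0.17 SE in P (adjusted p = 7.61e-05 and 0.000914), against 60.5 ± 11.6 CPM on day 4 and 58.7 ± 12 CPM on day 0 in EV. Tomm7 and Timm8b passed in PY at log2 0.50 and 0.49 and did not pass in P by the main test, which is no test of a difference between PY and P. With the experiment as a replicate block both passed in P also. Dnajc19 passed in PY and P at log2 0.49 and 0.35, Pmpcb at 0.43 and 0.38, and Timm22 at 0.32 and 0.34.

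Timm17b and Timm21 were called higher, and Chchd4, Grpel2 and Tomm34 lower, on day 4 in each of PY, P and EV. In PY, Timm21, Samm50, Dnajc19, Tomm7, Pmpcb, Tomm34 and Grpel2 kept their calls in all 12 fits that left out 1 library. Timm17b lost it without day 4 of experiment 1, Chchd4 without day 0 of 4 or 5 or day 4 of 5 or 6, and Timm10 (log2 -0.62) without day 0 of 5 or 6 or day 4 of 3 or 6. Timm8b lost it without day 0 of 1, 2, 4 or 6 or day 4 of 1, 2 or 5, Mtx2 (log2 0.33) without day 0 of 2, 4 or 6 or day 4 of 1, 2, 3 or 4, and Timm22 without day 0 of 1, 2 or 4 or day 4 of 1, 2 or 3. In P, Timm21, Samm50, Timm17b, Chchd4 and Tomm34 kept theirs in all 11 such fits. Dnajc19 lost it without day 4 of 2, Pmpcb without day 0 of 1, 3, 4 or 6 or day 4 of 2 or 5, and Timm22 without day 0 of 1, 3, 4 or 6 or day 4 of 1, 2, 4 or 5. Grpel2 (log2 -0.33) lost it without day 0 of 3, 5 or 6 or day 4 of 4, 5 or 6, Timm23 (log2 -0.49) without day 0 of 1, 4 or 5 or day 4 of 1, 3 or 6, and Timm9 (log2 -0.55) without day 0 of 4 or 5 or day 4 of 4, 5 or 6. The highest adjusted p among these single-library PY and P fits was 0.18. With all libraries of an experiment left out, Grpel2 in PY lost its call without experiment 5 or 6 (adjusted p up to 0.0977). Timm17b in P lost it without experiment 4 (adjusted p = 0.0513).

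By day 2 fewer members had moved. In PY 4 were higher and 3 lower than on day 0, 20.6% of members against 22.8% of all genes (11.4% in each direction), led by Timm21 at 13.3, 14.6, 16.7, 17.9 and 23.2 CPM on day 2 against 8.35 to 11.2 CPM on day 0 (log2 0.87 ± 0.16 SE, adjusted p = 6.92e-05). The count was 4 without the PY day 2 library of experiment 5. In P 3 were higher and 2 lower, 14.7% of members against 14% of all genes (6.99% higher, 6.98% lower), led by Samm50 (log2 0.67 ± 0.17 SE, adjusted p = 0.0056). The count was 2 without the P day 0 or day 2 library of experiment 5. In EV 0 were higher and 2 lower, Grpel2 (log2 -0.53 ± 0.12 SE, adjusted p = 0.00573) and Timm44 (log2 -0.33 ± 0.11 SE, adjusted p = 0.0479), 5.88% of members against 7.29% of all genes (2.87% higher, 4.43% lower). The EV count was 4 without the day 0 library of experiment 3 or the day 2 library of experiment 4, and 1 without day 0 of 2, 4 or 5 or day 2 of 1, 2, 5 or 6. Timm44 lost its call without each of those last 7 libraries (adjusted p up to 0.187), while Grpel2, Timm21 in PY and Samm50 in P kept theirs in each fit that left out 1 library. With all libraries of an experiment left out, Grpel2 in EV lost its call without experiment 1 or 5 (adjusted p up to 0.0758). Samm50 in P lost it without experiment 5 (adjusted p = 0.0898). With the replicate block the counts of higher and lower members on day 2 were 8 and 4 in PY, 5 and 3 in P, and 1 and 5 in EV. Under that block 17.3% and 18.3% of all genes were higher and lower in PY, 13.9% and 14.7% in P, and 10.2% and 11.8% in EV. Without a filter on low counts the member counts were 2 in PY, 1 in P and 1 in EV.

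Timm17a and Timm17b changed their balance over the 4 days. Timm17a was at 53.9, 85.0 and 101 CPM as lowest, median and highest on day 4 in PY, 52.6, 74.1 and 84.7 CPM in P, and 43.4, 49.6 and 79.7 CPM in EV. On day 0 it was at 90.5 ± 15.5 CPM in PY, 89.4 ± 18.7 CPM in P and 89.6 ± 23.2 CPM in EV. Timm17b was at 31.9 ± 6.30 CPM on day 4 in PY, 33.0 ± 7.01 CPM in P and 31.1 ± 6.47 CPM in EV, and on day 0 at 23.2 ± 2.24, 22.8 ± 3.02 and 23.0 ± 3.43 CPM in the same order. The log2 ratio of Timm17a to Timm17b (CPM + 0.5) was 1.36 ± 0.34 on day 4 against 1.93 ± 0.21 on day 0 in PY, 1.10 ± 0.23 against 1.93 ± 0.41 in P, and 0.81 ± 0.18 against 1.91 ± 0.40 in EV (SD). The difference was -0.57 in PY, -0.83 in P and -1.11 in EV, lower in 6 of 6, 5 of 5 and 5 of 5 experiments (exact permutation test, two-sided, adjusted p = 0.00649 over the 3 transfections in each case). This test was added after the data were seen. With experiments as a replicate block (sign changes within experiments, exact) p was 0.0312 in PY and 0.0625 in P and EV, which is the smallest that each number of experiments allows, and 0.0625 in all 3 after adjustment.

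**Figure D4:**
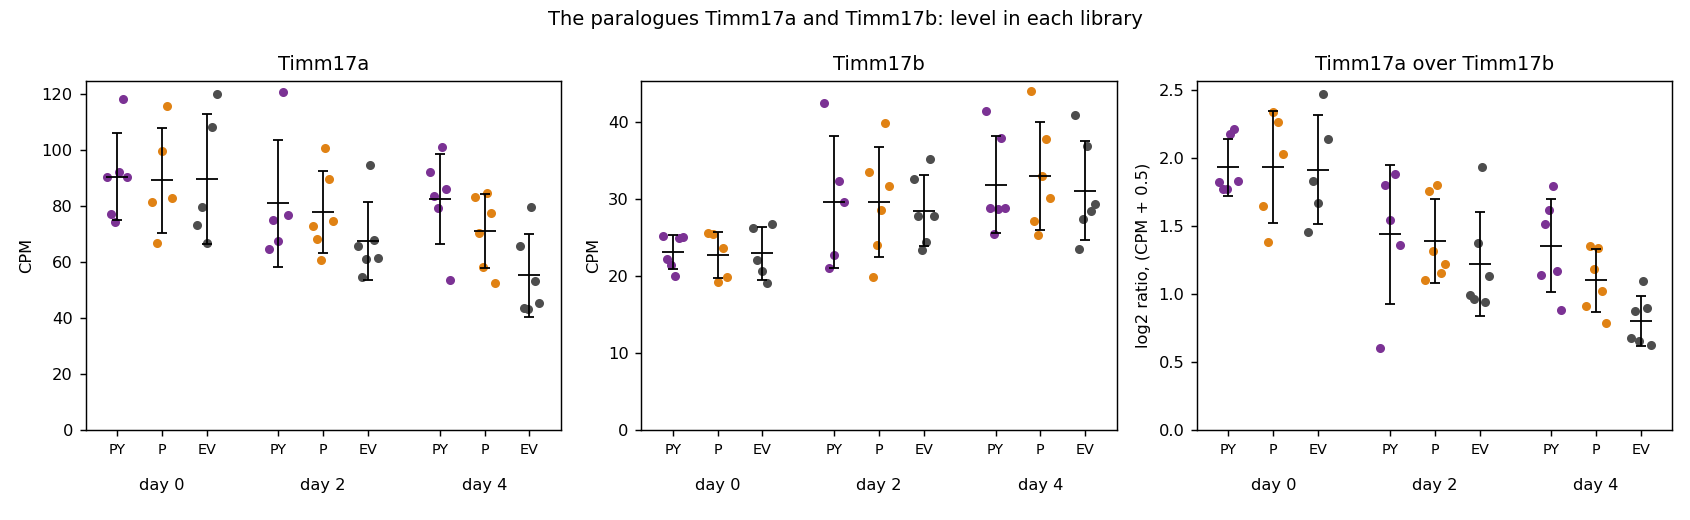
CPM of Timm17a and of Timm17b, and the log2 of their ratio, in each library (points) by day and transfection, with the group mean and SD as black bars. The mean log2 ratio lies between 1.91 and 1.93 in the 3 transfections on day 0 and at 1.36 in PY, 1.10 in P and 0.81 in EV on day 4.

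On day 4 the balance within pairs of related genes also differed between P and EV. Of 6 pairs, 5 differed in the log2 ratio by an exact permutation test over the 6 libraries of each group, two-sided and adjusted over the 6 pairs. Grpel1 to Grpel2 was at 1.58 ± 0.30 in P and 0.94 ± 0.34 in EV, a difference of 0.63 (adjusted p = 0.0173), and Tomm40 to Tomm40l, a paralogue of the channel, at 2.61 ± 0.12 in P and 2.35 ± 0.15 in EV, a difference of 0.26 (adjusted p = 0.0173). Timm10 to Timm10b was at 0.37 ± 0.27 in P and -0.05 ± 0.21 in EV, a difference of 0.41 (adjusted p = 0.0325), and Timm17a to Timm17b differed by 0.30 (adjusted p = 0.0494). In these 4 pairs the ratio was higher in P in 6 of 6 experiments. Dnajc19 to Dnajc15, a J-protein of the motor outside the member rule, went the other way, at -0.91 ± 0.44 in P and -0.10 ± 0.26 in EV, a difference of -0.81 (adjusted p = 0.0173) seen in 6 of 6 experiments. Dnajc15 itself was at 20.3, 34.9 and 53.2 CPM in P against 11.4, 16 and 19.2 CPM in EV as lowest, median and highest. Timm8a1 to Timm8b was higher in P in 4 of 6 experiments and did not pass (difference 0.29, adjusted p = 0.297). The call for Timm10 to Timm10b was lost (adjusted p up to 0.0649) without the EV library of experiment 1, 2, 3 or 6 or the P library of 1, 2, 4 or 5. That for Timm17a to Timm17b was lost (adjusted p up to 0.0987) without EV of 1, 2, 3, 5 or 6 or P of 1, 2, 3, 4 or 5.

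**Figure D5:**
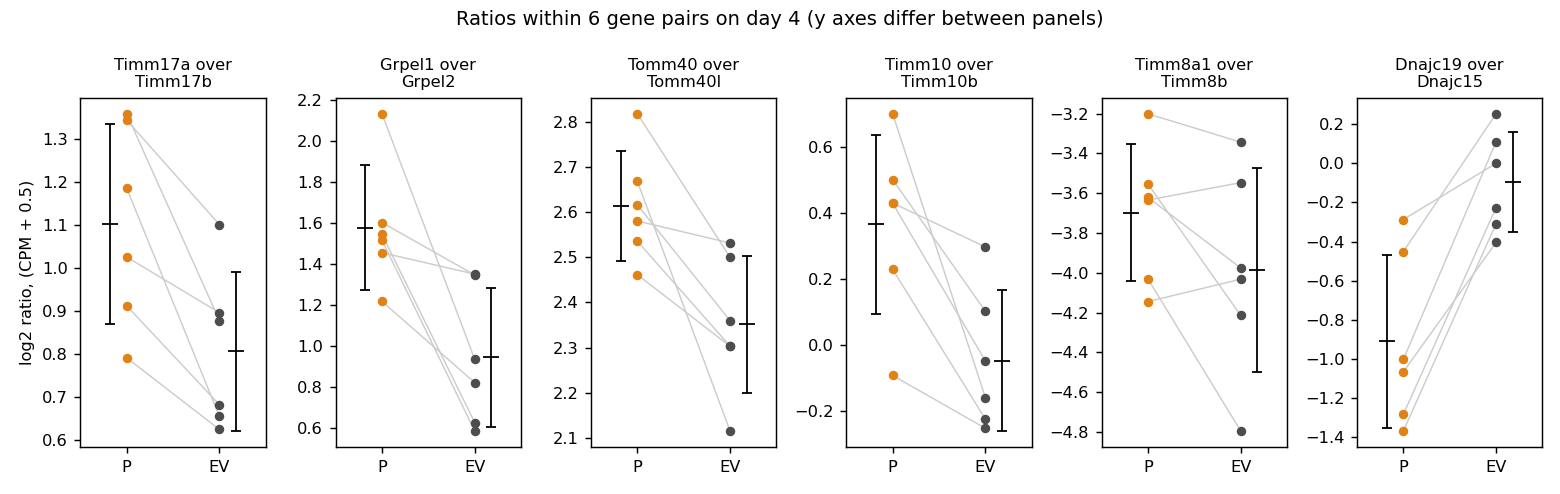
Log2 ratio (CPM + 0.5) within 6 gene pairs on day 4 in the P and EV libraries (points, 6 each), with lines joining libraries of the same experiment and black bars for the mean and SD. The ratio is higher in P in every experiment for 4 pairs, higher in 4 of 6 for Timm8a1 over Timm8b, and lower in every experiment for Dnajc19 over Dnajc15.

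Other genes of import and of protein handling after import were counted on day 4 for comparison. Over all genes tested, 7.03% were higher in PY than in EV and 0.793% lower. In P over EV these shares were 5.18% and 0.2%. Of 16 further import genes, 7 were higher in PY than in EV and 4 in P than in EV, and none was lower. They were led by Dnajc15 at log2 1.42 ± 0.24 SE in PY (adjusted p = 2.23e-05) and 1.17 ± 0.23 SE in P (adjusted p = 0.000486), then in PY by Hspa9, which encodes mortalin (log2 0.87 ± 0.23 SE), and in P by Aifm1, the partner of CHCHD4 (log2 0.54 ± 0.13 SE). Of 4 genes that fold proteins in the matrix, 3 were higher in both, led by Hspd1, the mitochondrial chaperonin, with 259.9 to 496 CPM in PY and 187 to 425 CPM in P against 102 to 236 CPM in EV, then Trap1. Of 8 tested genes of the cristae junction complex that binds SAM, 6 were higher in PY and 4 in P, led in PY by Chchd10 and Apoo at log2 2.13 and 0.88, and in P by Chchd10 and Immt at log2 1.99 and 0.80. Chchd10 was scarce, at 0.406 to 1.13 CPM in EV on day 4. It was at 1.15 to 6.4 CPM in PY and 0.786 to 5.59 CPM in P, so the P and EV ranges overlapped. Of 11 proteases and prohibitins of the inner membrane and matrix, 4 were higher in PY and 2 in P, led in both by Afg3l2 and Clpx. With the replicate block the cristae junction genes that passed in P were 7, and the proteases and prohibitins were 8 in PY and 6 in P. Under that block 10.3% of all genes were higher and 5.57% lower in PY, and 7.92% and 2.21% in P. Of 6 cytosolic chaperones that deliver precursors to TOM, 0 passed in either comparison by edgeR's test, and 0 had an unadjusted p under 0.05 in P over EV.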

How the data were processed

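Total RNA depleted of ribosomal RNA was sequenced with a stranded kit, per the labels' protocols. The authors deposited whole-number counts of reads per gene. The submitters' processing notes name edgeR 3.22.0, featureCounts 1.5.2 and STAR 2.5.3a, with mm10 as the build. The annotation release, strand setting and treatment of reads with several matches are not given in the sources used here. Gene IDs were matched to GENCODE M21 for class and exon length (53620 of 53801 matched).

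Counts were scaled by TMM and tested with edgeR 4.0.16 (R 4.3.3, limma 3.58.1) by quasi-likelihood over 9 group means, after filterByExpr kept 17015 genes, with Benjamini-Hochberg adjustment over all of them and a threshold of 0.05. SE was taken from the log2 fold change and its F statistic. CPM use the scaled library sizes, and RPKM divide these by exon length. Gene pair ratios were tested by exact permutation with scipy 1.17.1. Apart from those of the replicate block, p-values measure the spread between libraries within groups, each from a different experiment. In edgeR's fit this spread is pooled over the 9 groups. Libraries of 1 experiment in different groups are treated there as independent.

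Libraries that share an experiment number deviated together across groups (median correlation 0.364 over 192 pairs, against -0.0886 over 963 pairs of different experiments), so a fit with experiment as a replicate block was an alternative. The pairing comes from the experiment numbers in the labels. Other alternatives were DESeq2 1.42.0, median-of-ratios size factors, other filters, only the groups compared, and each library or experiment left out. Leaving out libraries with over 15% of counts in 10 genes was added after the data were seen. The scripts were tested on simulated data.

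Members and lists were chosen with earlier results of these data known. By rule, every member may be named, full statistics go to the 4 largest changes that passed in a comparison or, where none passed, the 2 smallest p, to gene pairs, and to the 2 largest of each other list. Statistics of further members that passed are given beyond that rule.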

Additional observations from a re-analysis of the deposited data

Results flagged for a closer look

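Of 306 sets of a member in a group, 16 (5.23%) held a library far from the rest, and chance alone gives about 1 in 20. In EV on day 2, experiment 4 was high for Grpel1 (85.1 CPM, others 51.3 to 61.9 CPM), Timm17a (94.6 CPM, others 54.7 to 68.1 CPM) and Timm8a1 (2.04 CPM, others 1.33 to 1.49 CPM). In EV on day 4 the same experiment was high for Mtx1 (27.7 CPM, others 21 to 22.9 CPM), Timm10 (11.8 CPM, others 6.70 to 8.58 CPM) and Timm9 (14.5 CPM, others 9.09 to 10.8 CPM). In P on day 2, experiment 5 was high for Timm21 (18.2 CPM, others 11.2 to 13.8 CPM), Timm22 (54.6 CPM, others 33.7 to 40.9 CPM) and Tomm40l (13.5 CPM, others 8.10 to 10.1 CPM). In PY on day 2, experiment 5 was high for Timm17a (121 CPM, others 64.8 to 77.0 CPM), Timm23 (22.5 CPM, others 14.0 to 15.3 CPM) and Tomm22 (102 CPM, others 75.4 to 82.3 CPM). In P on day 0, experiment 5 was high for Mtx2 (44.9 CPM, others 34.9 to 37.7 CPM) and Pmpcb (119 CPM, others 93.6 to 97.0 CPM), experiment 4 was high for Tomm34 (49.0 CPM, others 40.2 to 42.6 CPM), and experiment 3 was low for Pam16, a motor subunit (8.50 CPM, others 10.4 to 11.1 CPM).

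The difference of PY from EV in Pmpcb was larger on day 4 than on day 0 by log2 0.70 (edgeR's quasi-likelihood test of the change itself, adjusted p = 0.043). That call was lost in 10 of 23 fits that left out 1 library, namely EV day 0 of experiment 1, 3, 4 or 5, EV day 4 of 3 or 6, PY day 0 of 2, and PY day 4 of 2, 3 or 5 (adjusted p up to 0.133). The number of members called in this comparison was 0 without each of those 10 libraries and 2 without EV day 4 of 4 or PY day 4 of 4 or 6.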

How the results depend on the processing

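Main counts of members past the threshold are given first and their values under other settings after them. P over EV on day 4 gave 5, with 9 under a filter of 10 counts in every library of a group, 8 by DESeq2, 16 with experiment as a replicate block, 8 with median-of-ratios size factors, 9 without the 2 libraries of lowest totals, and 2 to 14 with a library or experiment left out. On day 2 it gave 2, with 1 without a filter and 0 to 2 with one left out. PY over EV on day 4 gave 13, with 23 under the block and 5 to 16 with one left out. On day 2 it gave 4, with 7 by DESeq2, 10 under the block, 0 with only the groups compared, 9 without libraries with over 15% of counts in 10 genes, and 0 to 7 with one left out. The change of P over EV from day 0 to day 4 gave 0, with 1 by DESeq2 and 1 under the block. That of PY over EV gave 1, with 2 under the stricter filter, by DESeq2, with only the groups compared and without the 2 lowest libraries, 3 under the block, 0 without a filter and without the 15% libraries, and 0 to 2 with one left out. Day 2 over day 0 gave 2 in EV, with 6 under the block, 4 without the 15% libraries, 1 with median-of-ratios, without a filter, with only the groups compared and without the 2 lowest libraries, and 0 to 4 with one left out. It gave 5 in P, with 8 under the block, 1 without a filter, 2 with only the groups compared and 1 to 5 with one left out. It gave 7 in PY, with 12 under the block, 2 without a filter and 2 to 10 with one left out. Day 4 over day 0 gave 15 in EV (7 to 16 with one left out), 11 in P (4 without a filter, 6 with only the groups compared, 6 to 12 with one left out) and 13 in PY (7 without a filter, 8 to 14 with one left out). To these the block added 5 calls in EV, 4 in P and 2 in PY, and ended 0 in each. The cause of these moves was not tested. Where no share of all genes is printed for a setting, a higher or lower count is not a result about the members. Over all comparisons the block added 54 member calls and ended 0, among them 11 in P over EV on day 4 (Timm10, Timm17a and Tomm40 with adjusted p = 0.00935, 0.0236 and 0.0055) and 10 in PY over EV on day 4, where Tomm34 passed as lower. Timm17b in P over EV on day 4 (log2 0.08, no call) ran from -0.000677 without the P library of experiment 1 to 0.18 without the EV library of experiment 1. Of the pair ratios, that of Timm10 to Timm10b ran from 0.35 to 0.51 and that of Timm17a to Timm17b from 0.25 to 0.36 with a library left out. Tomm6 and Timm8a1, with medians of 11 and 44 counts, are limited by depth.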
